A study of Rattus norvegicus with 144 samples.

Results

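The genes described here make cholesterol or move it into, within and out of cells. They were taken as every probe set whose platform symbol was 1 of 31 listed genes, whatever its values: 8 genes of the mevalonate and isoprenoid steps, 11 of the steps from squalene to cholesterol, 4 that regulate the SREBP transcription factors, 6 of uptake, transport, storage and the lysosome, and 2 of efflux. In the larger of the 2 deposited tables, 53 of 31042 probe sets matched, for 29 of the genes, and in the smaller 39 of 15866, for 26. Hmgcs1, which makes the substrate from which mevalonate is formed, and Npc1, which carries cholesterol out of lysosomes, had no probe set with a single symbol in either table. The smaller table also held none for Ggps1, Abca1 and Stard4. All 53 and 39 probe sets were tested, since no filter on low values was applied. The list of genes itself was chosen with earlier results of these data known.

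Male Sprague Dawley rats, 8 to 10 weeks old, were dosed by mouth every day with AMG A (0, 3 or 30 mg/kg) or AMG B (0, 3 or 60 mg/kg) for 1, 4 or 14 days, in 2 studies that each had controls of their own for every day. AMG A and AMG B are known only by these code names, and the series' design text describes their pharmacology as antiangiogenic. Affymetrix arrays measured the transcripts of liver on all 3 days in both studies, of adrenal gland on all 3 days for AMG B and on day 14 for AMG A, and of pancreas on day 14 for both. There were 72 rats and 144 arrays, in 36 groups of 4 animals. By the animal numbers, the tissues of a day came from the same animals in both studies. Controls received 0 mg/kg. For 16 adrenal and pancreas controls the titles name no study, and it was taken from the animal number shared with a liver array. The p-values measure the spread between these animals only.

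The deposited values are scores. Every probe set had been centred and scaled over its arrays, with an SD near 1, so 1 unit is that probe set's own spread over tissues, doses and days. For the 15866 probe sets in both tables the spread was taken over both, so it also holds any difference between the tables. Their median SD was 1.01 over both tables and 0.24 within the smaller. Probe sets of the larger table alone lack that part. A difference between groups is therefore in units of that spread, with no fold change or RNA amount behind it, and levels cannot be compared between probe sets. Within single arrays the SD over probe sets was 0.619 to 0.709 (AMG A livers), 0.793 to 0.990 (AMG B livers), 0.821 to 1.15 (adrenal) and 1.15 to 1.99 (pancreas). Liver of the AMG A study lies in the smaller table and was not tested against the rest. Marker lists matched the labelled tissues: on control arrays the mean adrenal cortex score was 1.11 to 1.70 in adrenal and at most -0.695 elsewhere, the hepatocyte score 0.499 to 0.848 in liver of the larger table and at most -0.907 elsewhere in it, and the acinar score 2.03 to 3.14 in pancreas and at most -0.411 elsewhere. A probe set is called changed here where limma's test over all probe sets of its table gave a Benjamini-Hochberg adjusted p under 0.05. The share of all probe sets called the same way stands beside the first count of each comparison. Where members at an unadjusted p under 0.05 are counted, the number of all probe sets at that p is given too. It is out of 31042, or of 15866 for AMG A livers.

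Cells build cholesterol from acetyl-CoA. The mevalonate steps yield farnesyl diphosphate, which is joined to squalene, and squalene is closed to lanosterol and trimmed to cholesterol by enzymes of the endoplasmic reticulum. When sterols are scarce, Scap carries the SREBP precursors to the Golgi, where they are cut into transcription factors that raise most of these genes, and the Insig proteins hold Scap back when sterols are plentiful. The adrenal cortex consumes cholesterol for steroid hormones and in rats takes much of it from high-density lipoprotein through Scarb1, while the liver makes bile acids and lipoproteins from it.

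Of the 24 comparisons with same-day controls, the one with the most member calls was the adrenal gland after 14 days of 60 mg/kg AMG B. There 27 of 53 member probe sets, of 18 genes, rose and 0 fell, where 3.12% of all probe sets rose. The median difference over the members was 1.18 units against 0.000867 over all probe sets. In 30 of the 53 every treated animal lay above every control, as in 5.16% of all probe sets, and those 30 included all 27 that were called. By role, 16 of 18 probe sets (10 of 11 genes) of the steps from squalene to cholesterol rose, 8 of 12 (6 of 7 genes) of the mevalonate steps, 3 of 9 (2 of 5 genes) of uptake and transport, and 0 of 7 each of SREBP regulation and efflux. In whole tissue, fewer cells of a type and less RNA per cell cannot be told apart, nor can more cells and more RNA.

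RefSeq promoter windows of 300 bases (build GRCr8) were available for 25 of the 31 members. Of these, 22 span the start of the gene, and those of Hmgcs1, Srebf2 and Insig2 lie wholly inside it. Windows that span the start are shown for the 4 genes of these steps with the smallest adjusted p among those with a window, and for Abca1, the efflux gene called in other comparisons. Capitals mark CCAAT, the core bound by NF-Y, and GGGCGG, a GC box, on either strand, so that ATTGG and CCGCCC are the same motifs read from the other strand.
Ebp, chrX:16971212-16971511, plus strand: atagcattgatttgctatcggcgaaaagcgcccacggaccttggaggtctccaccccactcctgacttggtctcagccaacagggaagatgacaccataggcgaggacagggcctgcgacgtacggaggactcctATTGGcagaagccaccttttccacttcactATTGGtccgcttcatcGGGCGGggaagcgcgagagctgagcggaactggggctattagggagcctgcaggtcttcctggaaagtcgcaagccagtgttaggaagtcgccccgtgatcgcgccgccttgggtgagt
Tm7sf2, chr1:212789492-212789791, minus strand: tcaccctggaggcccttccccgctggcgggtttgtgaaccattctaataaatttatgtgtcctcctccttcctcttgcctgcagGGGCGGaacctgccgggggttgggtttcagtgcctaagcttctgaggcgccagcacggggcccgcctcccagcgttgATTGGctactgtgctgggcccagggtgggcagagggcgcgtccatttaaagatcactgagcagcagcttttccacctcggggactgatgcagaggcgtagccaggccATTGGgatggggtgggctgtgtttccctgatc
Fdps, chr2:176804767-176805066, minus strand: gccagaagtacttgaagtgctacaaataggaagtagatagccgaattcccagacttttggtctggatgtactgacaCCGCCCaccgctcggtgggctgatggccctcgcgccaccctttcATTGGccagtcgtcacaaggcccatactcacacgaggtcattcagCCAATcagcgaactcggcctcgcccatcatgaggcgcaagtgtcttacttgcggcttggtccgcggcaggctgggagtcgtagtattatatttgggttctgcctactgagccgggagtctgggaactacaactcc
Lss, chr20:12118181-12118480, minus strand: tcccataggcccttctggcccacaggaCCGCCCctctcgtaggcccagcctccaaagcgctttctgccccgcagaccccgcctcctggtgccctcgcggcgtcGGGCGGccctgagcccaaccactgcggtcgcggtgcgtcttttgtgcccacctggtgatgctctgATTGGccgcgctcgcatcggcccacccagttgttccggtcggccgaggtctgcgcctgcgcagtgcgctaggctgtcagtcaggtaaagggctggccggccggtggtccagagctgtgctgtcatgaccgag
Abca1, chr5:72596424-72596723, minus strand: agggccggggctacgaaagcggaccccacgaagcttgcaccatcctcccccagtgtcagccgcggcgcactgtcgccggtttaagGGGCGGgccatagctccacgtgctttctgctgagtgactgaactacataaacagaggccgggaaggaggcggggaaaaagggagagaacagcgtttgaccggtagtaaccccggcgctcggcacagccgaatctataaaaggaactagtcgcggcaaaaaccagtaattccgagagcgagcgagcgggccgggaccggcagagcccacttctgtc
CCAAT occurred in 19 of 25 member windows (76.0%) and in 37.5% of 33469 windows of the same length, and GGGCGG in 20 of 25 (80.0%) and 33.1%. Over the 22 windows that span the start, CCAAT was in 16 (72.7%) and GGGCGG in 18 (81.8%). The windows shown hold at least 1 GGGCGG each, and all but that of Abca1 hold CCAAT. A sterol element searched as TCACNCCAC on both strands was in 0 of 25 and in 1.12% of all windows. With so rare a string 25 windows would seldom hold 1, and other forms of the element were not searched. The 0 therefore does not show that these promoters lack sterol elements. A match is a string of letters and no shown site.

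Among the mevalonate genes, values are given for the probe set with the lowest adjusted p of each gene, in the order of the animal numbers (controls 25 to 28, treated 33 to 36). Acat2, the cytosolic thiolase that joins acetyl-CoA units, scored 0.613, 0.969, 1.10 and 0.411 in the controls and 2.15, 2.75, 2.75 and 3.03 in the treated animals. It was higher by 1.90 (95% confidence interval 1.23 to 2.56, adjusted p = 0.000214). Mvk, which phosphorylates mevalonate, scored 1.29, 0.721, 1.25 and 0.963 in the controls and 2.13, 3.53, 3.16 and 3.74 in the treated animals. The treated animals were higher by 2.08 (95% confidence interval 1.47 to 2.70, adjusted p = 2.47e-05), with animal 33 well below the other treated animals but above all controls. Pmvk, which adds the second phosphate, scored 0.485, 0.0991, 0.432 and 0.375 in the controls and 1.93, 2.80, 2.40 and 2.85 in the treated animals, a difference of 2.15 (95% confidence interval 1.53 to 2.77, adjusted p = 1.61e-05). Its 4 controls lay close together and the treated animals all lay clear of them.

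Mvd, which removes the carboxyl group to give isopentenyl diphosphate, scored -0.00406, 0.00319, 0.648 and 0.131 in the controls and 0.989, 4.47, 4.48 and 4.30 in the treated animals. It was higher by 3.37 (95% confidence interval 1.96 to 4.77, adjusted p = 0.00169). Animal 33 stood just above the highest control and far under the other treated animals, which agreed closely. Idi1, which interconverts the isopentenyl units, scored -0.142, 0.210, 0.537 and -0.227 in the controls and 1.68, 3.10, 1.92 and 3.85 in the treated animals, higher by 2.54 (95% confidence interval 1.38 to 3.70, adjusted p = 0.00421). Fdps, which makes farnesyl diphosphate, scored -0.222, -0.389, -0.0911 and -0.362 in the controls and 2.65, 2.96, 3.61 and 5.07 in the treated animals. The difference was 3.84 (95% confidence interval 2.83 to 4.85, adjusted p = 3.28e-06), the lowest adjusted p of the mevalonate group, and the lowest treated animal was well clear of the highest control. Ggps1, which lengthens farnesyl to geranylgeranyl diphosphate for protein prenylation and lies off the route to cholesterol, was the mevalonate gene with no call: its 3 probe sets differed by 0.546, -0.0728 and -0.231. Mvk also had a probe set, 1375401_at, that was not called (0.638 (adjusted p = 0.694)).

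In the steps from squalene on, Fdft1, which joins farnesyl units to squalene, scored 0.156, -0.120, 0.289 and -0.148 in the controls and 1.42, 3.01, 2.61 and 4.52 in the treated animals, higher by 2.85 (95% confidence interval 1.94 to 3.75, adjusted p = 6.15e-05). Sqle, the epoxidase that follows, scored 0.230, 0.325, 0.620 and 0.267 in the controls and 2.13, 3.55, 3.08 and 5.38 in the treated animals. It was higher by 3.17 (95% confidence interval 2.21 to 4.13, adjusted p = 3.16e-05), and animal 36 was the highest, as in most of these genes. Lss, which closes the ring system to lanosterol, scored -0.00789, 0.310, 0.591 and 0.0511 in the controls and 3.01, 5.58, 2.33 and 3.86 in the treated animals, higher by 3.46 (95% confidence interval 2.46 to 4.45, adjusted p = 1.64e-05). Here animal 34 was highest and 35 lowest among the treated. Cyp51, which takes the first methyl group off lanosterol, scored -0.483, -0.161, 0.156 and -0.748 in the controls and 2.00, 3.74, 3.64 and 4.79 in the treated animals. It was higher by 3.85 (95% confidence interval 2.63 to 5.08, adjusted p = 6.15e-05), and no treated animal came near the controls. Tm7sf2, the reductase acting next, scored -0.767, -0.865, -0.896 and -0.869 in the controls and 0.467, 0.739, 0.0717 and 0.643 in the treated animals. The difference was 1.33 (95% confidence interval 1.09 to 1.57, adjusted p = 9.56e-10). Its controls spread little and all lay below 0, and all treated animals lay above 0.

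Msmo1, the oxidase that starts removal of the remaining methyl groups, scored 0.465, 0.187, 0.984 and -0.0354 in the controls and 1.68, 3.07, 2.81 and 3.57 in the treated animals, higher by 2.38 (95% confidence interval 1.46 to 3.31, adjusted p = 0.000793). Nsdhl, the dehydrogenase of the same step, scored -0.805, -0.841, -0.768 and -0.849 in the controls and -0.692, -0.259, -0.445 and -0.139 in the treated animals. Its difference of 0.432 (95% confidence interval 0.190 to 0.673, adjusted p = 0.0223) was small on this scale, and animal 33 stood only just above the controls. Hsd17b7, the ketoreductase that completes the step, scored -0.113, 0.0904, 0.409 and -0.256 in the controls and 1.47, 3.89, 3.26 and 4.43 in the treated animals, higher by 3.23 (95% confidence interval 2.16 to 4.29, adjusted p = 9.9e-05). Ebp, the isomerase that moves a ring double bond, scored -1.07, -1.06, -1.05 and -1.05 in the controls and -0.209, -0.0303, -0.262 and -0.0463 in the treated animals. The difference of 0.921 (95% confidence interval 0.766 to 1.08, adjusted p = 1.31e-10) had the smallest adjusted p of all members, with the 4 controls nearly identical. Sc5d, a desaturase near the end, scored -0.844, -0.796, -0.720 and -0.897 in the controls and 0.207, 0.817, 0.823 and 1.66 in the treated animals, higher by 1.69 (95% confidence interval 1.19 to 2.20, adjusted p = 2.8e-05). Dhcr7, which makes cholesterol in the last reduction, was the 1 gene of this group with no call, at 0.0882 (adjusted p = 0.906). A further probe set of Cyp51, Lss, Hsd17b7, Fdft1, Idi1, Mvk, Nsdhl, Sc5d and Stard4 was also called in the same direction, and the third of Sc5d, 1389111_at, was not (0.664 (adjusted p = 0.0535)) although its groups did not overlap.

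**Figure D1:**
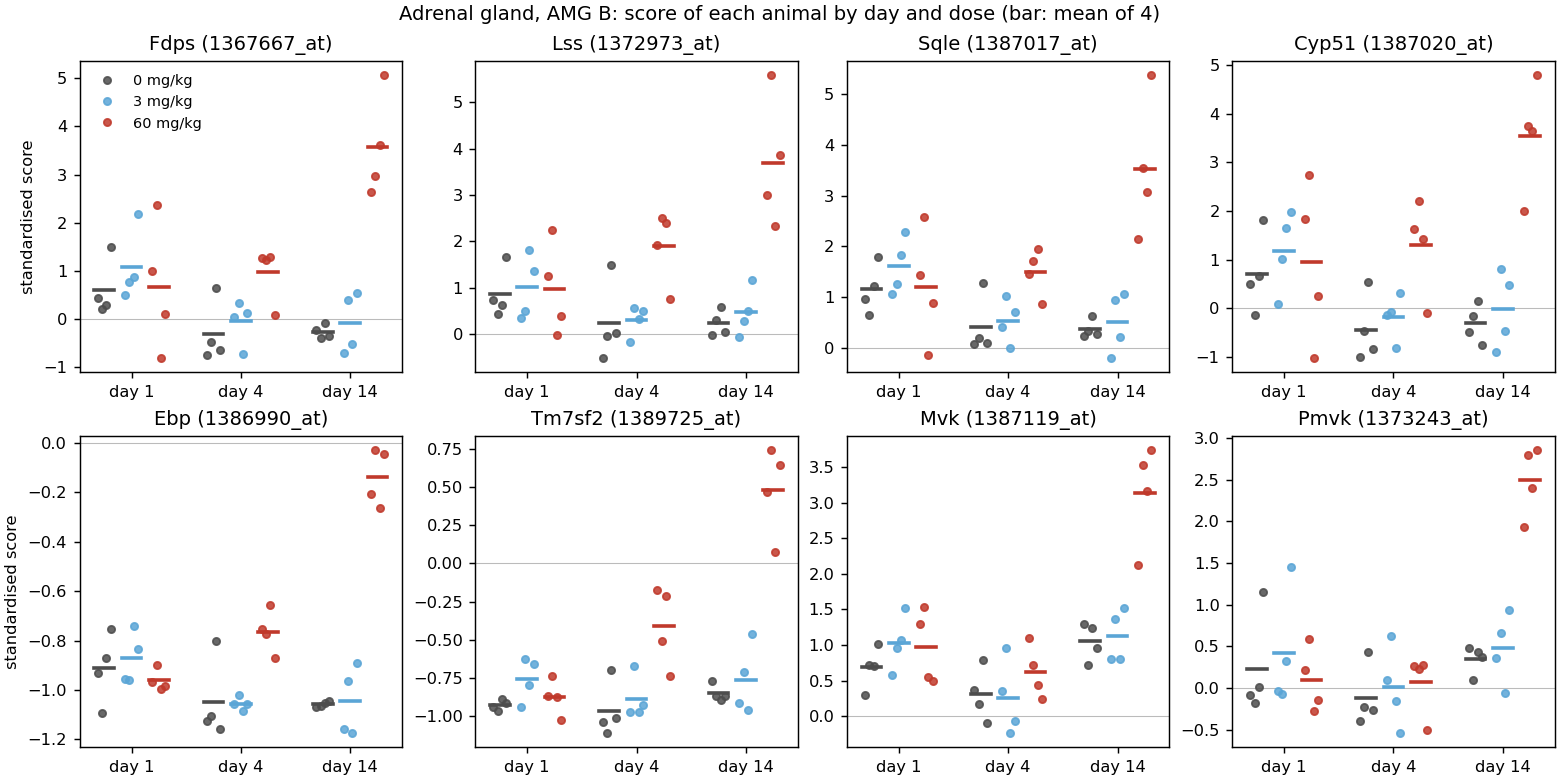
Standardised score (vertical axis) of 8 synthesis probe sets in each adrenal gland of the AMG B study, by day (horizontal axis) and dose (grey 0, blue 3, red 60 mg/kg), with a bar at the mean of 4 animals. On day 14 the red points lie above every grey point in all 8 panels; for Fdps they run from 2.65 to 5.07 and the controls from -0.389 to -0.0911.

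Of the uptake and transport genes, Stard4, a carrier of cholesterol through the cytosol, scored 0.171, -0.664, -0.417 and -0.253 in the controls and 0.578, 2.15, 0.332 and 0.934 in the treated animals, higher by 1.29 (95% confidence interval 0.686 to 1.89, adjusted p = 0.00528). Animal 34 stood above the rest, and the third probe set was not called (1.61 (adjusted p = 0.158)). Scarb1, the receptor for high-density lipoprotein, scored 1.17, 1.32, 1.38 and 1.20 in the controls and 1.87, 1.67, 1.81 and 1.93 in the treated animals. Its difference of 0.553 (95% confidence interval 0.208 to 0.899, adjusted p = 0.0447) was near the threshold, and its second probe set missed it (0.481 (adjusted p = 0.105)) with groups that did not overlap either. Leaving out any 1 of 7 of the 8 animals (34 excepted) ended the Scarb1 call, at adjusted p up to 0.117. Soat1, which esterifies cholesterol for storage, gave -0.234 and -0.113, Npc2, a lysosomal sterol carrier, 0.640, and Lipa, the lysosomal acid lipase, -0.959 (adjusted p = 0.116), none of them called.

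The regulators were not called. Insig1, itself a SREBP target, scored -0.0894, 1.14, 1.10 and -0.727 in the controls and 0.683, 3.11, 1.80 and 2.52 in the treated animals. The groups overlapped and the difference was 1.67 (95% confidence interval 0.323 to 3.03, adjusted p = 0.142). Insig2 gave 0.0715 and 0.0510, Scap 1.20 and 0.113, and Srebf2, which encodes the precursor of a SREBP, 0.117 and -0.291.

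Efflux genes had no call on day 14 in adrenal. The 4 probe sets of Abca1, the transporter that loads cholesterol onto apolipoproteins, differed by -1.03, -0.937, -0.667 and -0.608, all lower with overlapping groups. Abcg1, which loads high-density lipoprotein, gave 1.27, 0.521 and 0.329. Those values rested on animal 35, which scored 5.57, 1.63 and 1.62, far above the other treated animals. The adrenal of animal 35 also had a mean fibroblast marker score of 5.40, where the other treated animals had -0.55 to -0.45, and an adrenal medulla score of 0.054, where they had 1.21 to 1.55.

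Animals differed in how far the genes moved together. Of the 27 called probe sets, treated animal 33 was the lowest of its group in 20 and animal 36 the highest in 19, and among the controls animal 27 was the highest in 21. The mean over the 30 synthesis probe sets was 0.0416, -0.0109, 0.282 and -0.0641 in the controls and 1.25, 2.33, 1.68 and 2.62 in the treated animals. Leaving out each of the 8 animals in turn gave 23 to 27 called member probe sets, 27 of them without animal 35, and 22 of the 27 calls passed in every such fit. The other 5 were Scarb1 1386956_at, both of Nsdhl, Fdft1 1389906_at and Stard4 1392516_a_at. A fit of the 2 compared groups alone, with fewer arrays to estimate the spread, called 9 of 53, among them Fdps, Ebp, Tm7sf2, Pmvk and Acat2. The main fit pools the spread over all adrenal arrays, and the 2 groups spread unequally. The SD of the synthesis mean was 0.622 in the treated animals and 0.153 in the controls. Over the alternative settings limma's adjusted p reached 0.0243 for Ebp and 0.0364 for Fdps. The part of the unequal spread in the lost calls was not tested.

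Marker lists of other cells moved in the same comparison. Endothelial markers fell in 3 of 6 probe sets (median -0.803) and macrophage markers in 3 of 7 (median -0.572), and 1 of 4 erythroid probe sets fell. The mean endothelium score was 0.675, 0.775, 0.579 and 0.482 in the controls and -0.797, -0.583, 0.422 and -0.808 in the treated animals, of which animal 35 came close to the controls. The mean adrenal cortex score was 1.37, 1.52, 1.59 and 1.15 and 1.20, 1.35, 1.25 and 1.62, so that the groups overlapped and 0 of 7 probe sets were called. The part of these markers in the member differences was not tested.

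The dose of 3 mg/kg moved no member past the threshold on day 14 in adrenal (0 of 53 in limma, against 0.00322% of all probe sets called). At an unadjusted p under 0.05 there were 1 member and 1829 of all probe sets. The lowest p-values belonged to Lipa 1368075_at (-0.802, adjusted p = 0.793) and Ggps1 1379556_a_at (0.696, adjusted p = 0.941). The synthesis mean was -0.261, 0.516, 0.0571 and 0.591 in animals 29 to 32. Animals 30 and 32 were the highest of the 4 in 10 and 17 of the 27 probe sets called at 60 mg/kg, and animal 29 was the lowest in 23. The 2 doses set against each other differed in 27 of 53 member probe sets, of 18 genes, all higher at 60 mg/kg, where 2.39% of all probe sets were. The 6 with the lowest adjusted p were Ebp (0.909), Tm7sf2 (1.24), Fdps (3.65), Pmvk (2.02), Mvk (2.02) and Lss (3.22), with adjusted p from 4.77e-10 to 6.16e-05. This comparison shares the 60 mg/kg animals with the one against controls, and a fit of these 2 groups alone called 0.

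On day 4 fewer synthesis probe sets were called above the controls in the adrenal of the 60 mg/kg animals than on day 14. Tm7sf2, Dhcr7 and Hsd17b7 rose, 3 of 53 member probe sets against 0.296% of all, and 2 of Abca1 fell, against 0.593%. The median member difference was 0.405 (all probe sets 0.0144). An unadjusted p under 0.05 was found for 28 of 53 members and 3545 of all 31042 probe sets. In 3 of the 53 every treated animal lay above every control, as in 3.09% of all probe sets, and in 1 below, as in 3.51%. In the order of animals 13 to 16 and 21 to 24, Tm7sf2 scored -1.04, -1.11, -0.699 and -1.01 in the controls and -0.175, -0.505, -0.210 and -0.738 in the treated animals, higher by 0.557 (95% confidence interval 0.312 to 0.801, adjusted p = 0.0126). Dhcr7 scored 0.407, 0.722, 1.07 and 0.559 in the controls and 1.30, 1.93, 1.58 and 1.45 in the treated animals, higher by 0.875 (95% confidence interval 0.435 to 1.32, adjusted p = 0.0371), and its groups did not overlap. Hsd17b7 (1387233_at) scored -0.0613, 0.480, 1.18 and 0.0197 in the controls and 2.03, 2.31, 2.94 and 0.746 in the treated animals, higher by 1.60 (95% confidence interval 0.784 to 2.42, adjusted p = 0.0409). Control 15 was high and treated animal 24 low in both Tm7sf2 and Hsd17b7, so these groups overlapped.

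Both called Abca1 probe sets fell. Probe set 1394490_at scored 1.73, 0.868, -0.536 and 0.819 in the controls and -0.708, -1.02, -0.660 and -0.277 in the treated animals, a difference of -1.39 (95% confidence interval -2.06 to -0.712, adjusted p = 0.0293). For 1382431_at the values were 2.19, 1.02, -0.658 and 1.54 in the controls and -0.734, -0.848, -0.798 and -0.309 in the treated, a difference of -1.69 (95% confidence interval -2.52 to -0.868, adjusted p = 0.0297). Control 15 was again the exception, at the level of the treated animals. Control 15 was the highest control in 27 of 30 synthesis probe sets and animal 24 the lowest treated in 25 of 30. The day 4 calls rested on few animals. Without control 15 there were 9 calls, without animal 24 there were 6, without control 16 or treated animal 21 or 22 there was 1, and without control 13 or 14 or treated animal 23 there were 0, as in the fit of the 2 groups alone. Endothelial markers fell in 3 of 6 probe sets here (median -1.44), 1 of 4 erythroid probe sets fell and 1 of 7 adrenal medulla probe sets rose, and their part was not tested.

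Day 1 gave no member call in adrenal at 60 mg/kg (0 of 53 in limma, 0.335% of all called). At an unadjusted p under 0.05 there were 2 of 53 members and 2769 of all 31042 probe sets, a smaller share of the members than of all. Closest were Ggps1 1386215_at (0.522, adjusted p = 0.486) and Abca1 1394490_at (-0.705, adjusted p = 0.52). At 3 mg/kg there were 0 calls on day 1 (0.00644% of all) and 0 on day 4 (0.0354% of all). At an unadjusted p under 0.05 there were 0 members and 1488 of all probe sets on day 1, and 1 and 1949 on day 4. On day 1 the lowest p-values were those of Stard4 1386279_at (0.578, adjusted p = 1) and Sc5d 1389111_at (0.391, adjusted p = 1). On day 4 they were those of Dhcr7 1368189_at (0.588, adjusted p = 0.566) and Abca1 1394490_at (-0.606, adjusted p = 0.854). The 60 mg/kg effect grew between day 4 and day 14 in 4 member probe sets, against 0.522% of all. They were Ebp, larger by 0.637 (95% confidence interval 0.418 to 0.856, adjusted p = 0.00212), Pmvk by 1.97 (adjusted p = 0.02), Tm7sf2 by 0.773 (adjusted p = 0.0202) and Mvk 1387119_at by 1.76 (adjusted p = 0.0358). Their count was 8 without treated animal 33 of day 14, and 1 without control 15 or treated animal 24 of day 4. Dhcr7, called on day 4, went the other way without a call for the change: its effect was 0.875 on day 4 and 0.0882 on day 14. Between day 1 and day 4 the change of the effect passed in 0 members (0.00644% of all), with 7 members and 2139 of all probe sets at an unadjusted p under 0.05 in limma. The 60 and 3 mg/kg animals differed in 0 members on day 1 (0.00966% of all) and 0 on day 4 (0.0966%), Tm7sf2 coming nearest on day 4 with an adjusted p of 0.101. At an unadjusted p under 0.05 there were 0 members and 1662 of all probe sets on day 1, and 19 and 2896 on day 4.

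**Figure D2:**
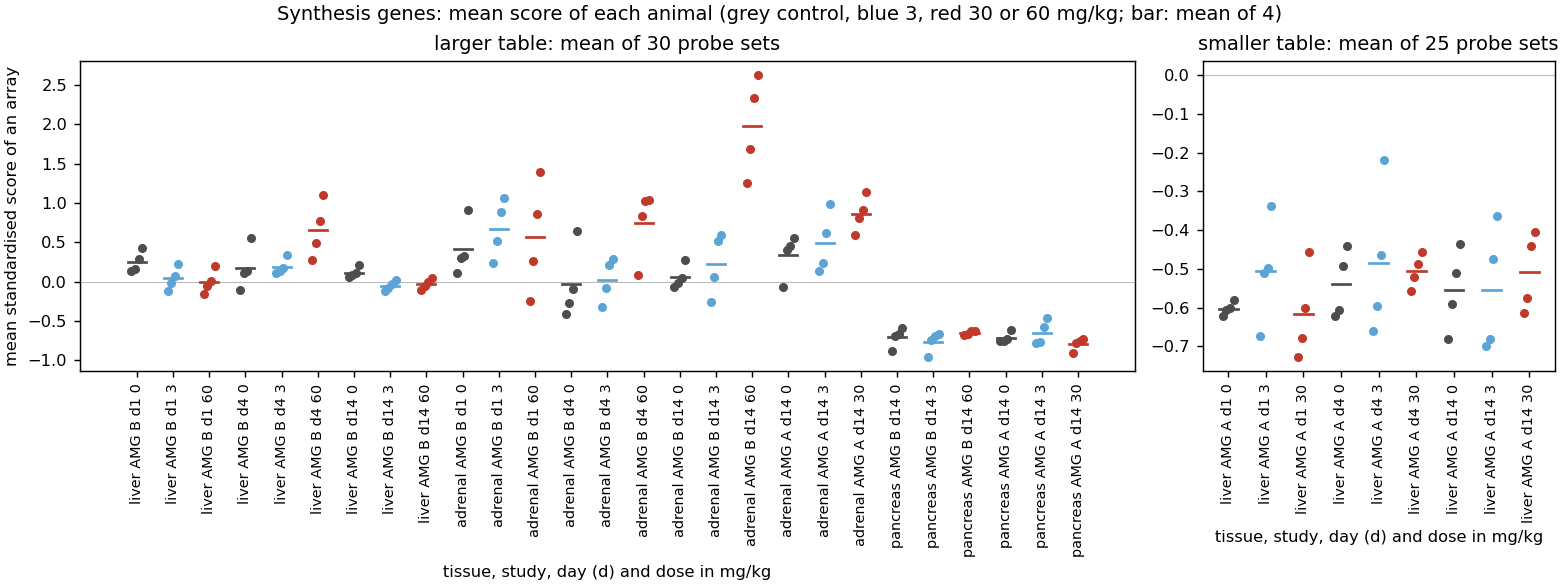
Mean standardised score over the synthesis probe sets (vertical axis) of each animal, by tissue, study, day and dose in mg/kg (horizontal axis), with grey for controls, blue for 3 mg/kg, red for 30 or 60 mg/kg and a bar at the mean of 4. On day 14 at 60 mg/kg AMG B 3 adrenal glands, from 1.68 to 2.62, lie above every other array of the left panel, and the fourth, at 1.25, lies under 1 day 1 gland at 1.39; the right panel is the smaller table, whose level cannot be set against the left.

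AMG A gave 0 member calls in adrenal on day 14. At 30 mg/kg limma called 0.0% of all probe sets, and 8 members and 1799 of all probe sets had an unadjusted p under 0.05. Of the 53 member differences 47 were above 0, with a median of 0.284 (all probe sets 0.00101). In 9 members every treated animal lay above every control, as in 1.78% of all probe sets. Lss 1368086_a_at, with the lowest p, scored -0.255, 0.979, -0.245 and 1.82 in the controls and 1.5, 2.69, 2.27 and 2.87 in the treated animals, a difference of 1.76 (95% confidence interval 0.575 to 2.94, adjusted p = 0.673). Ebp scored -1.02, -0.933, -0.970 and -0.963 in the controls and -0.887, -0.552, -0.676 and -0.910 in the treated animals, a difference of 0.215 (95% confidence interval 0.0602 to 0.370, adjusted p = 0.684). The synthesis mean was -0.0611, 0.559, 0.398 and 0.455 in the 4 controls and 0.808, 1.14, 0.595 and 0.909 in the treated animals, whose lowest value was just above the highest control. At 3 mg/kg 0 members passed (0.0% of all), with 1 member and 1078 of all probe sets at an unadjusted p under 0.05. The lowest p-values were those of Srebf2 1377489_at (-0.977, adjusted p = 1) and Abcg1 1373995_at (0.635, adjusted p = 1).

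The 2 compounds were compared at 3 mg/kg on day 14 in adrenal and pancreas, 2 comparisons each adjusted over all probe sets. Livers at 3 mg/kg lie in separate tables for the 2 compounds and were not compared. The effects of AMG A and AMG B differed in 0 of 53 members in adrenal (0.00644% of all) and 0 in pancreas (0.0% of all). At an unadjusted p under 0.05 there were 0 members and 1426 of all probe sets in adrenal, and 3 and 2909 in pancreas. For Fdps the effect of AMG A minus that of AMG B in adrenal was -0.00253 (95% confidence interval -1.43 to 1.42), and for Ebp 0.0148 (-0.204 to 0.234), intervals that do not show equal action. The high doses differ (30 and 60 mg/kg), so their values stand side by side without a test. In adrenal on day 14, Fdps differed from its own controls by 0.809 at 30 mg/kg AMG A and 3.84 at 60 mg/kg AMG B, Cyp51 1387020_at by 0.683 and 3.85, Sqle by 0.569 and 3.17, and Tm7sf2 by 0.251 and 1.33.

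In liver 6 synthesis genes rose at 60 mg/kg AMG B on day 4. Of the 53 member probe sets 7, of 6 genes, rose and 0 fell (0.412% of all probe sets rose), with a median difference of 0.285 (all 0.00549). All 7 belong to synthesis, 6 to the steps from squalene on. In 4 of the 53 every treated animal was above every control, against 4.3% among all probe sets.

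Lss, with the lowest adjusted p (1368086_a_at), scored -0.579, -0.681, -0.416 and -0.374 in the controls and 0.354, 0.293, 0.938 and 0.554 in the treated animals (animals 13 to 16 and 21 to 24). It was higher by 1.05 (95% confidence interval 0.647 to 1.45, adjusted p = 0.00629), with treated animals above 0 and controls below. Its other probe set was higher by 0.631 (adjusted p = 0.0192). Msmo1 scored -0.278, -0.694, -0.653 and -0.677 in the controls and -0.0701, 0.225, 0.684 and -0.323 in the treated animals, higher by 0.704 (95% confidence interval 0.413 to 0.996, adjusted p = 0.0129). Control 13 stood far above the other controls, level with the lower treated animals. Dhcr7 scored -0.430, -0.570, -0.503 and -0.582 in the controls and -0.260, -0.223, -0.00684 and -0.330 in the treated animals, higher by 0.317 (95% confidence interval 0.184 to 0.449, adjusted p = 0.014). Every treated animal was above the controls, by a small margin. Sqle scored -0.263, -0.554, -0.620 and -0.614 in the controls and -0.242, -0.223, 0.191 and -0.265 in the treated animals, higher by 0.378 (95% confidence interval 0.208 to 0.549, adjusted p = 0.0238). Here animal 23 alone was above 0 and control 13 reached the other treated animals. Cyp51 (1387020_at) scored 0.83, -0.174, -0.457 and -0.372 in the controls and 0.570, 1.25, 1.91 and 0.381 in the treated animals, higher by 1.07 (95% confidence interval 0.557 to 1.59, adjusted p = 0.0369), with control 13 above 2 of the treated animals. Mvk (1368232_at), the 1 called gene of the mevalonate steps, scored -0.916, -0.876, -1.15 and -1.07 in the controls and -0.393, -0.452, 0.719 and -0.711 in the treated animals, higher by 0.793 (95% confidence interval 0.404 to 1.18, adjusted p = 0.043), and animal 23 stood apart.

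Animal 23 was the highest treated animal in all 7, and control 13 the highest control in 24 of 30 synthesis probe sets. The synthesis mean was 0.556, 0.142, 0.106 and -0.101 in the controls and 0.490, 0.768, 1.10 and 0.277 in the treated animals, so the groups overlapped. Only the call of Lss 1368086_a_at passed with every animal left out in turn. The number called was 10 without control 13, 8 without animal 24, 6 without 21 or 22, 4 without control 15, 3 without control 16 and 1 without control 14 or treated animal 23, and 0 in a fit of the 2 groups alone. Beside these, 1 of 7 macrophage, 1 of 6 endothelium and 2 of 4 erythroid probe sets fell, and their part was not tested. In adrenal of the same animals on day 4, animal 24 had the lowest treated synthesis mean and in liver too, while the highest control was 15 in adrenal and 13 in liver.

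The 60 and 3 mg/kg livers of day 4 differed in 1 member, Msmo1, higher at 60 mg/kg by 0.656 (adjusted p = 0.0447), against 0.145% of all probe sets. That call ended when any 1 of 7 of the 8 animals was left out. Against controls, 3 mg/kg on day 4 gave 0 calls (0.0226% of all), with 3 members and 1787 of all probe sets at an unadjusted p under 0.05 in limma. Nearest were Sc5d 1389111_at (-1.11, adjusted p = 0.693) and Dhcr7 1368189_at (0.154, adjusted p = 0.824). At an unadjusted p under 0.05, the 60 mg/kg effect changed in 22 members and 1848 of all probe sets from day 1 to day 4. From day 4 to day 14 it did so in 23 and 3666. After adjustment the first change passed in 0 members (0.00322% of all) and the second also in 0 (0.242% of all). These counts rose to 6 and 4 without day 4 control 13 and to 3 and 2 with 1 probe set a gene. Leaving out day 4 animal 24 gave 3 and 1, day 4 animal 22 or day 1 control 3 gave 1 for the first change, and day 14 control 25 gave 1 for the second. Over the 18 probe sets of the squalene to cholesterol steps, the median change of the effect was 1.00 from day 1 to 4 and -0.833 from day 4 to 14, values that share the day 4 animals. Nearest the threshold were Lss 1368086_a_at, with 1.56 (adjusted p = 0.0679), and Dhcr7, with -0.389 (adjusted p = 0.0646).

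On day 1 the liver values leaned the other way at both doses of AMG B, without a call. At 3 mg/kg 43 of 53 member differences were below 0, with a median of -0.147 (all probe sets 0.00353), and 0 passed (0.00966% of all). In limma 11 members and 1418 of all probe sets had an unadjusted p under 0.05. In 14 members every treated animal lay below every control, as in 1.93% of all. At 60 mg/kg 38 were below 0, with a median of -0.202 (all probe sets 0.00238), and 0 passed (0.0548% of all). There 14 members and 2482 of all probe sets had an unadjusted p under 0.05. In 11 members every treated animal lay below, as in 2.7% of all. Both doses were set against the same 4 controls. Cyp51 1367979_s_at, with the lowest p at each dose, scored 0.738, 0.734, 0.426 and 0.476 in the controls, -0.240, -0.157, -0.430 and -0.215 at 3 mg/kg and -0.581, -0.0816, -0.406 and 0.0613 at 60 mg/kg. Its differences were -0.854 (adjusted p = 0.637) and -0.845 (adjusted p = 0.289). Next came Sqle at 3 mg/kg, with -0.278 (adjusted p = 0.682), and Lss 1372973_at at 60 mg/kg, with -0.387 (adjusted p = 0.432). The doses themselves differed in 0 members (0.0129% of all), with 1 member and 1884 of all probe sets at an unadjusted p under 0.05.

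On day 14 in liver the members called at 60 mg/kg were 2 probe sets of Abca1 and no synthesis gene. They rose, 2 of 53 against 2.96% of all probe sets, a share near the background. Abca1 1394490_at scored 0.826, -0.546, 0.853 and 0.698 in the controls and 2.06, 2.98, 2.71 and 2.25 in the treated animals (animals 25 to 28 and 33 to 36), higher by 2.04 (95% confidence interval 0.986 to 3.10, adjusted p = 0.0176). Control 26 was far below the other controls. Abca1 1384381_at scored 1.28, 1.09, 1.20 and 0.870 in the controls and 1.44, 2.25, 3.41 and 1.43 in the treated animals, higher by 1.02 (95% confidence interval 0.437 to 1.60, adjusted p = 0.0311). Here animal 35 was highest, and animals 33 and 36 only just exceeded the controls. The other Abca1 probe sets were not called, 1382431_at at 1.67 (adjusted p = 0.0652) and 1383355_at at 0.697 (adjusted p = 0.226). Leaving out control 26 or treated animal 34 ended both calls, leaving out control 27 or 28 or treated animal 35 left 1, and quantile normalization or a fit of the 2 groups alone left 0.

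Liver macrophage markers fell in 5 of 7 probe sets in this comparison, endothelial in 3 of 6, fibroblast in 2 of 7 and erythroid in 2 of 4. The mean macrophage score was 1.49, 1.60, 1.24 and 0.621 in the controls and -0.757, -0.836, 1.20 and -0.391 in the treated animals, with animal 35 at the control level. Their part in the Abca1 values was not tested. Against 3 mg/kg the same 2 Abca1 probe sets were higher at 60 mg/kg, by 1.18 (adjusted p = 0.0163) for 1384381_at and 1.96 (adjusted p = 0.0289) for 1394490_at (2.16% of all probe sets were). That count was 0 without 3 mg/kg animal 29 or treated animal 35, and 1 without animal 31 or 34. At 3 mg/kg against controls 0 members passed on day 14 (0.0% of all), with 2 members and 2018 of all probe sets at an unadjusted p under 0.05 in limma. Nearest were Ebp 1386990_at (-0.472, adjusted p = 0.721) and Srebf2 1377489_at (-0.798, adjusted p = 0.733). Of the steps from squalene on, 16 of 18 probe sets were below 0 at 60 mg/kg on day 14, with a median of -0.199 (all probe sets 0.0121) and 0 calls.

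**Figure D3:**
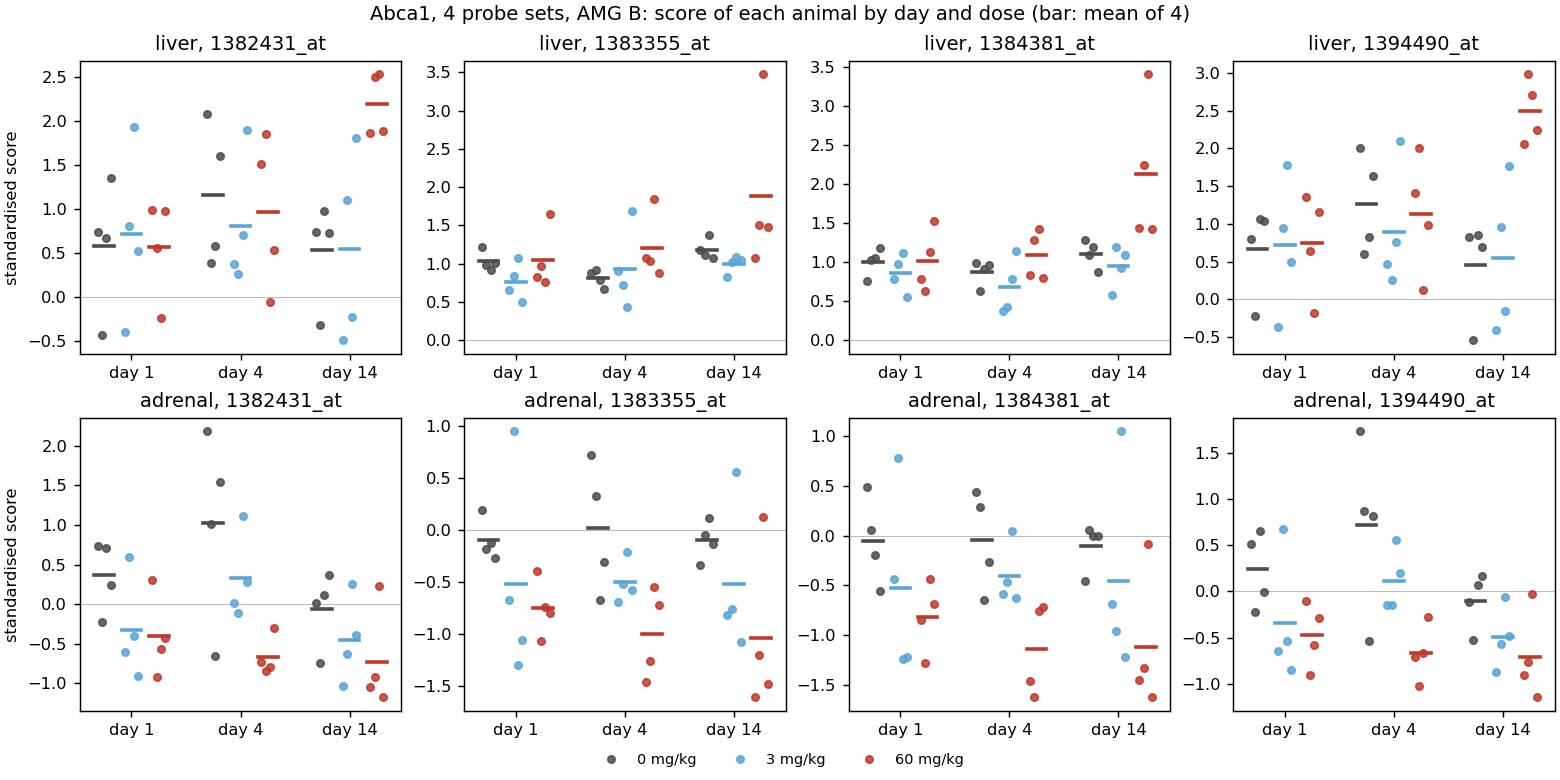
Standardised score (vertical axis) of the 4 Abca1 probe sets in liver (top) and adrenal (bottom) of the AMG B study, for each animal by day (horizontal axis) and dose (grey 0, blue 3, red 60 mg/kg), with a bar at the mean of 4. On day 14 the red liver points of 1394490_at run from 2.06 to 2.98 and lie above every control, while in adrenal the red means lie below the control means on all 3 days.

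Liver of the AMG A study, measured with 39 member probe sets, had 0 member calls in limma in all 6 comparisons. The share of all probe sets called was 0.0378% at 3 mg/kg and 0.366% at 30 mg/kg on day 1, 0.0126% and 0.0693% on day 4, and 0.0063% and 0.353% on day 14. In the same order 2, 5, 2, 1, 5 and 2 members had an unadjusted p under 0.05. So had 1592, 1863, 1141, 1616, 1234 and 1996 of all 15866 probe sets. Abcg1 1387054_at had the lowest p of the members in 4 of the 6. It scored -0.782, -0.808, -0.764 and -0.493 in the day 1 controls, -1.13, -1.12, -1.19 and -1.15 at 3 mg/kg and -1.02, -1.13, -1.06 and -0.963 at 30 mg/kg. On day 14 it scored -0.507, -0.690, -0.774 and -0.709 in the controls, -1.19, -1.07, -0.904 and -1.29 at 3 mg/kg and -1.15, -1.15, -1.0 and -1.13 at 30 mg/kg. Every treated animal of those 2 days lay below every control of its day, and each day's 2 doses share their controls.

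The 2 members with the lowest p on day 1 were, at 3 mg/kg, Abcg1 1387054_at (-0.434, adjusted p = 0.136) and Srebf2 1377489_at (-1.0, adjusted p = 0.215). At 30 mg/kg they were Abcg1 1387054_at (-0.331, adjusted p = 0.201) and Lipa 1368075_at (-0.457, adjusted p = 0.202). On day 4 they were, at 3 mg/kg, Insig2 1389377_at (-0.591, adjusted p = 0.543) and Abcg1 1387054_at (-0.234, adjusted p = 0.688). At the higher dose that day they were Scap 1389567_at (-0.236, adjusted p = 0.419) and Cyp51 1387020_at (0.299, adjusted p = 0.642). On day 14 the lowest p at 3 mg/kg belonged to Abcg1 1387054_at (-0.442, adjusted p = 0.199) and Mvk 1375401_at (1.04, adjusted p = 0.517). For 30 mg/kg on day 14 it belonged to Abcg1 1387054_at (-0.436, adjusted p = 0.0863) and Abcg1 1368103_at (0.208, adjusted p = 0.244). The other Abcg1 probe sets did not follow 1387054_at: on day 14 at 30 mg/kg 1368103_at differed by 0.208 and 1373995_at by -0.0794. Leaving out animal 3015 of the 3 mg/kg group gave 1 call on day 1. The synthesis genes gave no call in these livers, and their mean was -0.435, -0.511, -0.590 and -0.681 in the day 14 controls and -0.576, -0.405, -0.442 and -0.613 at 30 mg/kg.

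In pancreas on day 14, 60 mg/kg AMG B raised 4 and lowered 1 of 53 member probe sets, with 4.98% of all probe sets raised and 4.9% lowered, so the share of members lay near the background or below it. Ggps1, of the branch to protein prenylation, rose in 2 of 3 probe sets. Its 1379556_a_at scored -1.12, -0.970, -0.245 and -0.910 in the controls and 1.39, 0.186, 1.77 and 2.02 in the treated animals, higher by 2.15 (95% confidence interval 1.41 to 2.90, adjusted p = 0.00121), and 1377866_a_at was higher by 1.22 (adjusted p = 0.037). All treated animals lay above the controls in both. Mvk 1387119_at scored -1.33, -1.63, -2.04 and -1.28 in the controls and -0.0850, -0.597, -0.279 and -0.804 in the treated animals, higher by 1.13 (95% confidence interval 0.548 to 1.71, adjusted p = 0.0149). The other Mvk probe sets went the other way without a call, 1375401_at at -2.08 (adjusted p = 0.0548) and 1368232_at at -0.823 (adjusted p = 0.309).

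Abca1 was split between its probe sets in pancreas. Abca1 1383355_at scored -0.274, -0.380, 0.442 and 0.582 in the controls and -0.990, -1.37, -0.694 and -1.44 in the treated animals, a difference of -1.21 (95% confidence interval -1.73 to -0.701, adjusted p = 0.00464), with every treated animal below the controls. Abca1 1382431_at scored -1.14, -1.50, -1.03 and -0.781 in the controls and 0.826, -0.835, -0.249 and -0.736 in the treated animals, higher by 0.864 (95% confidence interval 0.309 to 1.42, adjusted p = 0.0444). Animal 33 was far above the other treated animals, and leaving out any 1 of controls 25, 26 and 27 or treated animals 33 and 35 ended this second call. The call of Ggps1 1377866_a_at ended without any 1 of 6 animals, and the other 3 calls passed in every such fit. The number of calls was 3 without control 25 or treated animal 35, and 3 to 6 over all omissions. The steps from squalene on gave 0 calls of 18, with a median of -0.00894. In these pancreases all 7 acinar markers fell, with a mean score of 2.78, 2.72, 2.31 and 3.14 in the controls and 1.74, 1.66, 1.55 and 1.59 in the treated. Of the others, 2 of 5 islet and 2 of 6 endothelium probe sets fell and 1 of 7 fibroblast probe sets rose. The mean lymphocyte score was -0.0762, -0.0568, -0.151 and 0.0335 in the controls and 5.22, -0.138, -0.131 and -0.149 in the treated, high in animal 33 alone, with 0 of 6 probe sets called. The mean fibroblast score was 0.814, 0.567, 1.40 and 1.57 in the controls and 3.18, 0.478, 5.27 and 1.18 in the treated, high in animals 33 and 35. The part of these markers in the member values was not tested.

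The other pancreas groups had 0 member calls in limma. At 3 mg/kg AMG B 0.0226% of all probe sets were called. There 2 of 53 members and 2729 of all 31042 probe sets had an unadjusted p under 0.05, a smaller share of the members than of all. The lowest p-values belonged to Srebf2 1371979_at (2.43, adjusted p = 0.361) and Abca1 1383355_at (-0.657, adjusted p = 0.418). At 3 mg/kg AMG A the share was 0.00322% and at 30 mg/kg 0.00322%. At an unadjusted p under 0.05 there were 0 members in each, with 1138 and 2086 of all probe sets. For 3 mg/kg the nearest were Fdft1 1367839_at (0.473, adjusted p = 1) and Abcg1 1368103_at (-1.49, adjusted p = 1). For 30 mg/kg they were Stard4 1396521_at (-0.431, adjusted p = 0.754) and Srebf2 1377489_at (-2.33, adjusted p = 0.759).

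**Figure D4:**
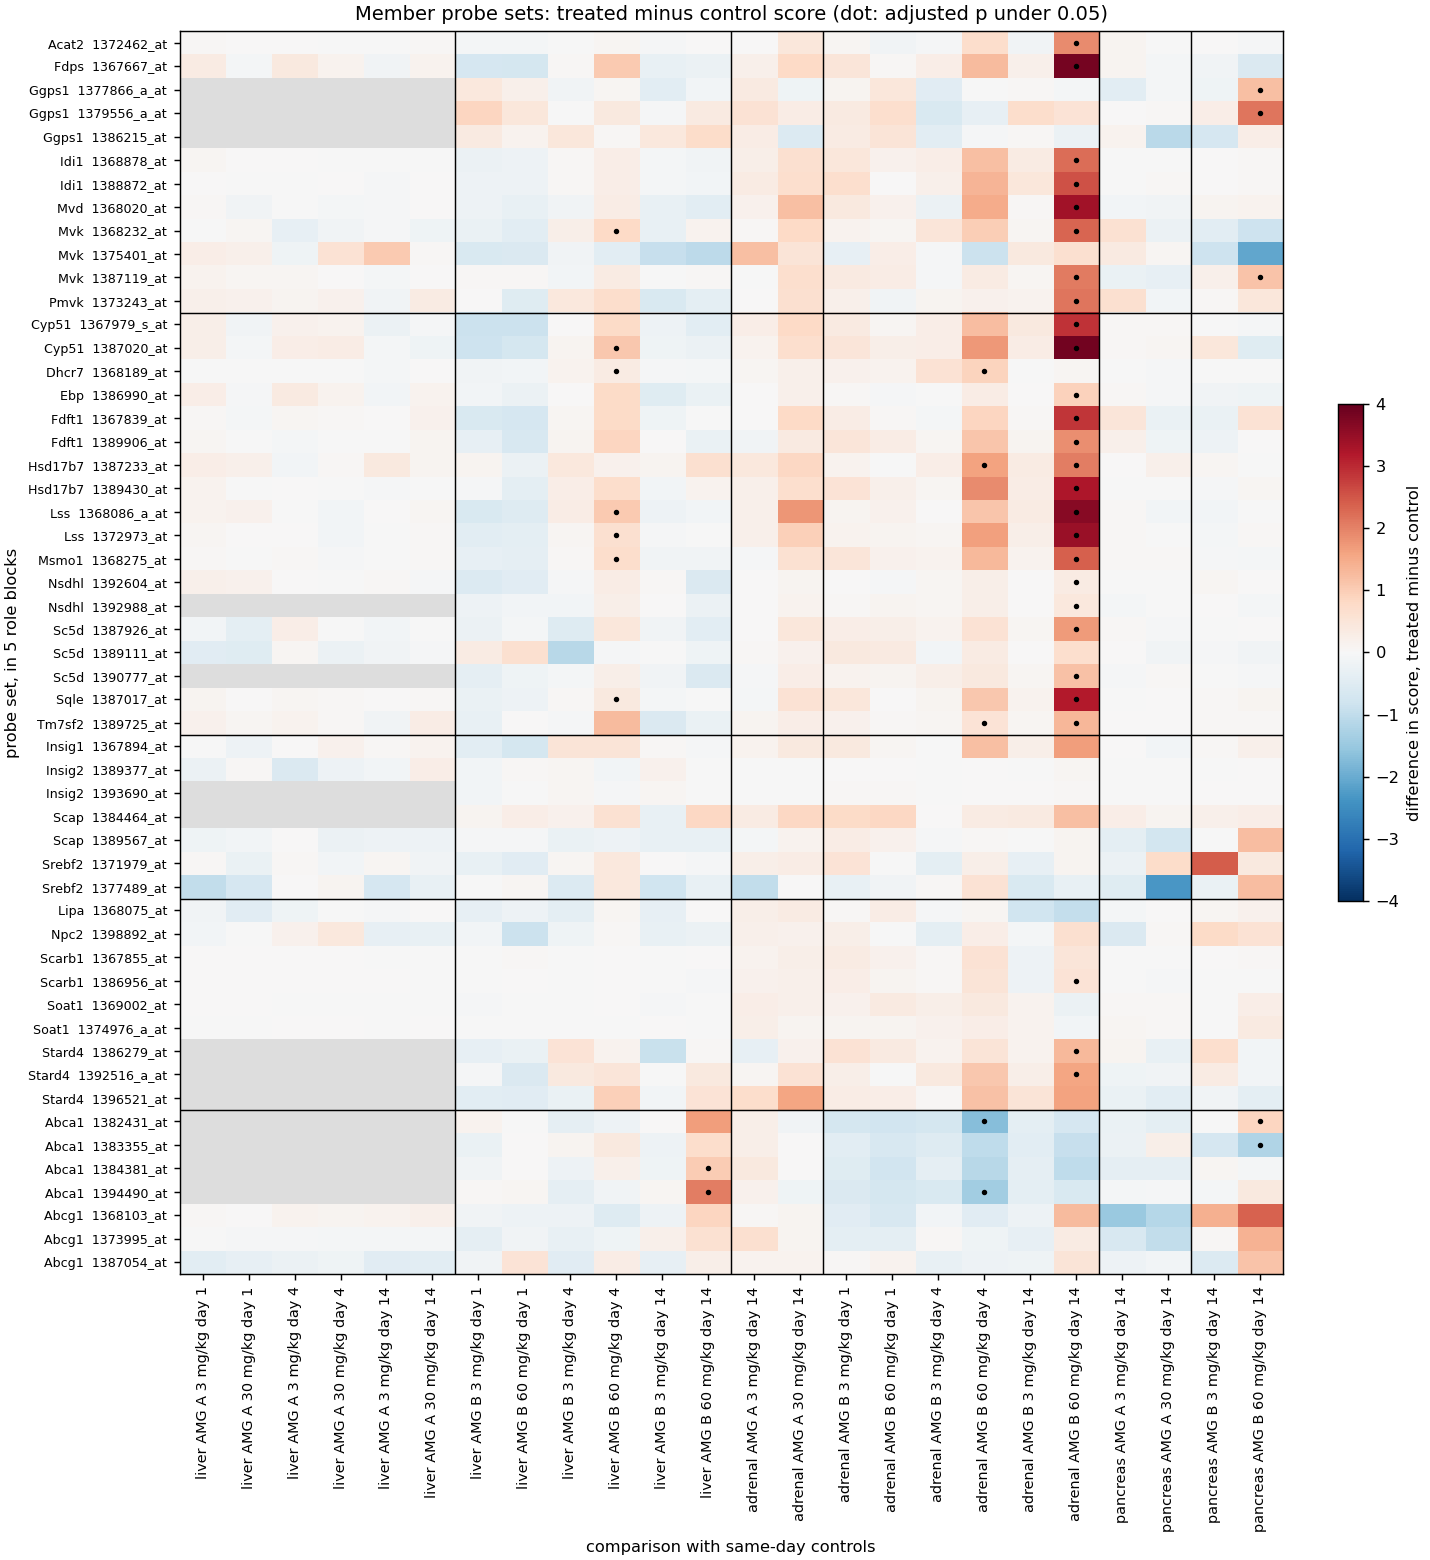
Difference in standardised score, treated minus control (colour, from -4 to 4), for each member probe set (rows, in 5 role blocks) in the 24 comparisons with same-day controls (columns), with a dot where the adjusted p was under 0.05 and grey where the smaller table has no such probe set. Of the 46 dots, 27 lie in the column of adrenal at 60 mg/kg AMG B on day 14.

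The effect of 60 mg/kg AMG B on day 14 differed between tissues, adrenal against liver, in 13 of 18 probe sets from squalene on and 8 of 12 of the mevalonate steps. In all, it was higher in adrenal for 22 of 53 member probe sets (1.36% of all) and lower for 3 (1.33% of all), the 3 being Abca1 1394490_at (-2.65), 1384381_at (-2.04) and 1382431_at (-2.34). The 6 with the lowest adjusted p were Fdps, larger in adrenal by 4.08 (95% confidence interval 2.93 to 5.22, adjusted p = 2.42e-06), Sqle by 3.20 (adjusted p = 1.01e-05), Lss 1372973_at by 3.49 (adjusted p = 1.05e-05) and 1368086_a_at by 3.74 (adjusted p = 2.12e-05), and Sc5d 1390777_at by 1.75 (adjusted p = 1.36e-05) and 1387926_at by 2.12 (adjusted p = 3.63e-05). On day 1 the tissues differed in 0 members (0.0226% of all) and on day 4 also in 0 (0.0966% of all). At an unadjusted p under 0.05 in limma there were 0 members and 1129 of all probe sets on day 1, and 11 and 2029 on day 4.

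Pancreas and adrenal differed as well. The pancreas effect was lower in 25 of 53 member probe sets (11.8% of all) and higher in 4 (9.31% of all), which were Ggps1 1379556_a_at and 1377866_a_at, Lipa and Soat1 1374976_a_at. Lowest in adjusted p were Fdps at -4.43 (95% confidence interval -5.58 to -3.28, adjusted p = 1.44e-08), Cyp51 1387020_at at -4.32 (adjusted p = 8.38e-07), Lss 1372973_at at -3.41 (adjusted p = 1.04e-06), Sqle at -3.07 (adjusted p = 1.43e-06), Lss 1368086_a_at at -3.66 (adjusted p = 2.32e-06) and Mvk 1368232_at at -3.17 (adjusted p = 3.6e-06). Both tissue comparisons use the adrenal effect, which they share.

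**Figure D5:**
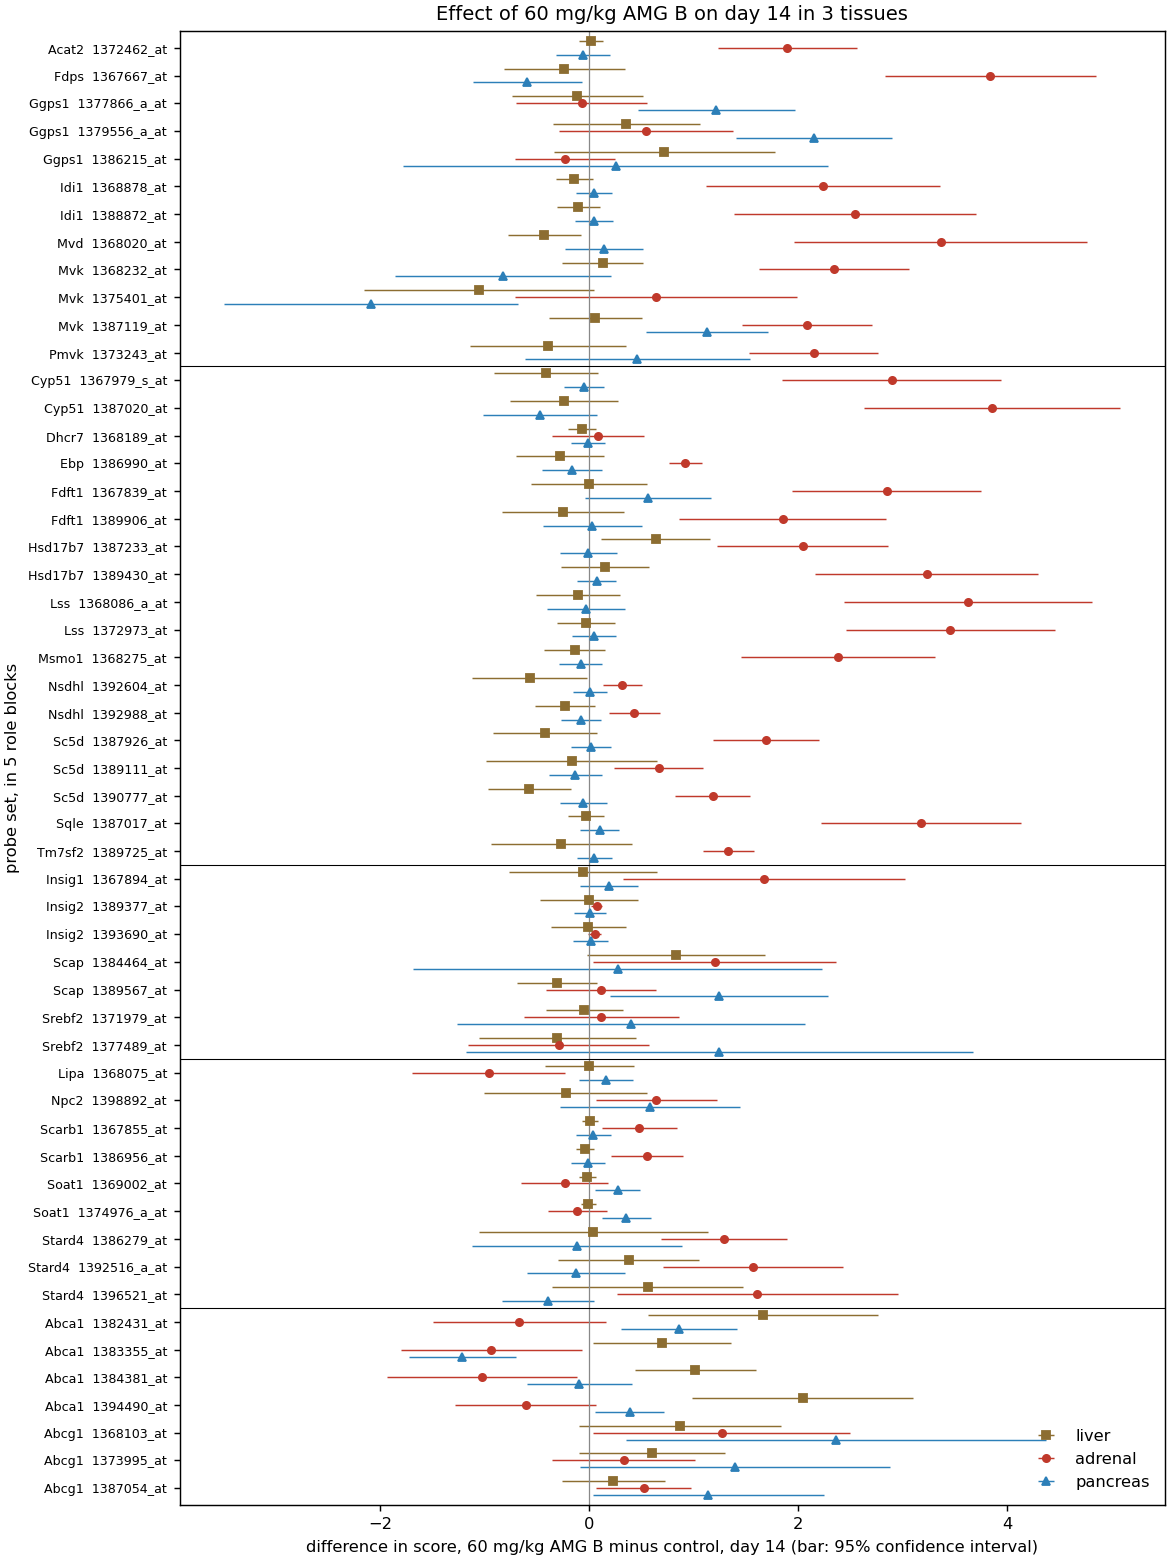
Difference in standardised score between 60 mg/kg AMG B and control on day 14 (horizontal axis) for every member probe set (vertical axis, in 5 role blocks) in liver, adrenal and pancreas, with bars for the 95% confidence interval. All 18 adrenal points of the squalene to cholesterol block lie to the right of 0, up to 3.85 for Cyp51 1387020_at, while the liver and pancreas points of that block lie between -0.574 and 0.635.

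In control animals the members lay both above and below liver in adrenal. In pancreas they lay mostly below liver, with 44 of 53 differences under 0 and a median of -0.890 (all probe sets 0.0726). Control adrenal was above control liver on day 14 in 15 of 53 member probe sets (27.5% of all) and below it in 15 (23.9% of all), shares near the background. Control pancreas was above control liver in 2 (31.5% of all) and below it in 26 (29.3% of all). Liver held the highest control mean in 27 probe sets, in 15 without overlap with the other tissues, adrenal in 22, in 14 without overlap, and pancreas in 4. Scarb1 and Soat1, which take up and store cholesterol for steroid hormone synthesis, were high in adrenal: Scarb1 1386956_at scored 1.17, 1.32, 1.38 and 1.20 there against -0.512, -0.566, -0.567 and -0.550 in liver, and Soat1 1374976_a_at 1.35, 1.15, 1.21 and 1.22 against -0.752, -0.756, -0.753 and -0.760. Ebp, Nsdhl and Insig2 stood highest in liver: Ebp scored 1.20, 1.36, 1.58 and 0.999 in liver, -1.07, -1.06, -1.05 and -1.05 in adrenal and -0.914, -0.667, -0.903 and -1.05 in pancreas, and Tm7sf2 did so too, with means of 1.04, -0.849 and -1.29. The adrenals of day 14 at 60 mg/kg lay between their own controls and control liver for Ebp and Tm7sf2, while for Fdps, at -0.354 to -0.0245 in control liver, they lay above both, an order given without a test.

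Genes of the same pathway outside the 31 were read as 30 probe sets of 21 genes. In adrenal at 60 mg/kg on day 14, 4 rose and 3 fell. Vldlr, a lipoprotein receptor, rose in 3 of its 4 probe sets, and 1392924_at was not called. The rises were 1.21 (adjusted p = 0.000229) for 1389611_at, 1.01 (adjusted p = 0.000343) for 1387455_a_at and 1.54 (adjusted p = 0.000425) for 1369098_at. Osbp, an oxysterol-binding protein, rose by 0.785 (adjusted p = 0.0287). The 3 that fell, where 2.85% of all probe sets did, were Cyp27a1, a sterol hydroxylase, at -0.422 (adjusted p = 0.00479), Stard3, a late endosomal sterol carrier, at -0.542 (adjusted p = 0.0116), and Mbtps1, the protease that makes the first cut in SREBP, at -0.542 (adjusted p = 0.0261). Osbp and these 3 were named after their values were seen. On day 4 Mylip, a ligase that marks lipoprotein receptors for degradation, fell by 0.614 (adjusted p = 0.0426). In liver at 60 mg/kg on day 14 Osbp rose by 1.02 (adjusted p = 0.00159). In pancreas on day 14 the same 3 Vldlr probe sets rose, by 4.24, 3.51 and 2.85, 3 of the 4 that rose there. The other 20 comparisons with controls had 0 calls among these genes.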

How the data were processed

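Rat liver, adrenal gland and pancreas were measured on Affymetrix expression arrays, 36 groups of 4 animals, labelled from 5 ug of total RNA by a one-cycle biotin reaction, per the labels' protocols. The deposited value tables hold a score for each probe set, which the authors had already centred near 0 and scaled to an SD near 1, with probe sets common to both tables scaled over both together, as the values show. For the scanner software, summary method and scaling: not given in the sources used here. Although the plan had assumed log2 values, limma was run on the scores as deposited. Standardising fixes each probe set's total spread, so a difference is relative to that spread.

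The members, lists and tests were chosen with earlier results of these data known. Probe sets were named through the platform's gene table, updated by Entrez number to RefSeq (GRCr8). A single symbol was found for 20826 probe sets in the larger and 12783 in the smaller table, several for 436 and 312, and none for 9780 and 2771. Groups were taken from the labels, and fitted with limma (lmFit, eBayes with trend) in 4 fits: adrenal, pancreas, and the livers of either study. Comparisons between tissues and of control tissues used the 84 AMG B arrays together. There were 42 comparisons: 24 of a dose with same-day controls, 6 of 60 with 3 mg/kg, 4 between days, 2 between compounds, 4 between tissues and 2 of control tissues. P-values were two-sided and adjusted by Benjamini-Hochberg over every probe set of a comparison, with a threshold of 0.05. Means over a list are plain means of scores.

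The rule was to name the called members of each comparison with controls, at most the 12 with the lowest adjusted p, with every animal's value for 1 probe set a gene in the 2 comparisons with most calls. The text departs from it: all 18 called genes are named for adrenal on day 14, and animal values are also given for members of other comparisons, chosen after their values were seen. Where none passed, the 2 with the lowest p were given, and in other comparisons up to 6 called members. Genes outside the members were to be named up to 3 a comparison. More are named for adrenal on day 14, and none where none passed. Alternatives were quantile normalization, a filter (above the array's 40th percentile on at least 4 arrays), 1 probe set a gene, only the compared groups, no trend, each animal left out, and the animal as a replicate block. Leaving out animals in the comparisons other than those with controls was added after seeing the data. Tissues with the same number were taken to come from 1 animal, by the titles. The median correlation of their deviations from group means was 0.0415 for adrenal and liver (-0.0115 between different numbers), 0.0227 for adrenal and pancreas (-0.00916) and 0.0149 for liver and pancreas (-0.00587). It was above 0.1 in 1 of 36, 1 of 12 and 0 of 12 pairs. Values this low do not by themselves show that the tissues share an animal. The number of arrays limits the precision. Software was R 4.3.3, limma 3.58.1, data.table (1.17.8), Python 3.11.15, pandas 2.3.3, numpy 2.4.6, scipy 1.17.1 and matplotlib 3.10.9, and the scripts were tested on simulated data.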

Additional observations from a re-analysis of the deposited data

Results flagged for a closer look

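In 4 of 92 sets of 4 values tested, 1 animal lay far from the other 3, and chance flags about 1 set in 20. Each set is 1 probe set in 1 group, so the same animals recur over the sets. In liver on day 4, control animal 13 scored -0.278 for Msmo1, where the other controls scored -0.694 to -0.653, and animal 23 at 60 mg/kg AMG B scored 0.191 for Sqle, where the others scored -0.265 to -0.223. In liver on day 14, control animal 26 scored -0.546 for Abca1 1394490_at, where the others scored 0.698 to 0.853. In adrenal on day 14, animal 33 at 60 mg/kg scored 0.989 for Mvd, where the others scored 4.30 to 4.48.

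The effect of 60 mg/kg AMG B in adrenal differed between days 14 and 4, by limma's test of the difference, for Ebp (0.637), Pmvk (1.97), Tm7sf2 (0.773) and Mvk 1387119_at (1.76), larger on day 14 in each.

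On day 14 the same test found the adrenal effect larger than the liver effect for Fdps (4.08), Sqle (3.20), Lss (3.49 for 1372973_at and 3.74 for 1368086_a_at) and Sc5d (1.75 for 1390777_at and 2.12 for 1387926_at). The pancreas effect was smaller than the adrenal effect for Fdps (-4.43), Cyp51 1387020_at (-4.32), Lss (-3.41 for 1372973_at and -3.66 for 1368086_a_at), Sqle (-3.07) and Mvk 1368232_at (-3.17).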

How the results depend on the processing

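Of 632 recomputed counts of called members, 564 stayed within 1.5 times the reported count and 68 did not. Comparisons without a call are included, so the 564 hold many counts of 0 that stayed 0. Where 60 mg/kg AMG B gave calls, counts moved that far more often. Of 8 omissions of an animal, the count moved in 7 for adrenal on day 4, 4 for liver on day 4 and 5 for liver on day 14. It moved in 2 for pancreas and in 0 for adrenal on day 14. Of 573 recomputed values of named probe sets, 442 stayed on their side of the threshold, 131 lost their call and 0 changed sign. The cause was not tested, except that a fit of only the compared groups uses fewer arrays and 1 probe set a gene tests fewer probe sets. For AMG B at 60 mg/kg, only the compared groups gave 9 calls in adrenal on day 14 and 0 on day 4, 0 in liver on days 4 and 14, and 3 in pancreas. That fit gave 0 for 60 against 3 mg/kg in adrenal on day 14 and in liver on days 4 and 14, 0 for the adrenal change from day 4 to 14, and 19 for pancreas against adrenal. With 1 probe set a gene the counts were 4 (liver day 4), 1 (liver day 14), 3 (adrenal day 4), 3 (pancreas), 1 (liver, 60 against 3 mg/kg on day 14), 3 and 2 (liver, day 4 against day 1 and day 14 against day 4), 19 (control adrenal against liver) and 16 (control pancreas against liver). The filter on low scores gave 4 in liver on day 4, 3 in pancreas and 0 for 60 against 3 mg/kg in liver on day 4, where the fit without trend also gave 0. Quantile normalization gave 0 in liver on day 14, 1 for 60 against 3 mg/kg there and 2 for the adrenal change from day 4 to 14.

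Leaving out 1 animal gave 23 to 27 calls in adrenal on day 14, 0 to 9 on day 4, 1 to 10 in liver on day 4, 0 to 2 on day 14 and 3 to 6 in pancreas. For 60 against 3 mg/kg it gave 20 to 30 and 0 to 1 in adrenal on days 14 and 4, and 0 to 3 and 0 to 2 in liver. Between days it gave 1 to 8 (adrenal, 14 against 4), 0 to 6 (liver, 4 against 1) and 0 to 4 (liver, 14 against 4). Between tissues it gave 22 to 25 (adrenal against liver, day 14), 25 to 32 (pancreas against adrenal), and 26 to 30 and 25 to 30 for control adrenal and control pancreas against liver. Liver at 3 mg/kg AMG A on day 1 gave 0 to 1, and every other comparison 0 throughout.

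With the animal as a replicate block the day 14 counts were 25 for adrenal against liver, 27 for pancreas against adrenal, and 29 and 28 for control adrenal and control pancreas against liver, where fits without the block gave 25, 29, 30 and 28, and it moved no count by over 1.5 times. Signal over background is unknown for these scores, and 4 animals a group limit what can be called.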

Other observations

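Abcg1 and Npc2 stood far out in single animals of the 60 mg/kg AMG B group on day 14. In liver, Abcg1 1368103_at scored 3.92 in animal 35, where the other treated animals scored -0.375 to 0.651, and Npc2 scored 2.72 in that animal, where the others scored 0.127 to 0.632. The adrenal of the same animal had the Abcg1 score of 5.57 given above. In pancreas it was animal 33 that stood out, at 5.46 for Abcg1 1368103_at, where the others scored 0.581 to 1.82. In those arrays the mean lymphocyte marker score was 5.22 in the pancreas of animal 33, and the mean macrophage score was 1.20 in the liver of animal 35, where the other treated livers had -0.836 to -0.391. The part of these markers was not tested.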
